A study of Mus musculus with 4 samples.

Results

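Cholesterol synthesis was followed through 7 genes that encode enzymes of the pathway, *Hmgcs1*, *Idi1*, *Fdps*, *Fdft1*, *Sqle*, *Lss* and *Cyp51*. The genes were taken by symbol from the deposited count table, in which 6 of them matched a row among 12067 genes. *Lss*, whose product closes the sterol rings, was not analysed here. The 7 genes are all synthesis enzymes, so genes for cholesterol uptake were read from a separate list. Expression was measured by Quant-seq, a 3′ mRNA sequencing method, in KL cells (c-Kit+, Sca-1-, lineage-), the myeloid progenitors of the bone marrow. The KL cells carried the donor marker CD45.2 and were sorted 20 weeks after whole bone marrow had been transplanted into Ptprca mice, and the question was which genes differ when *Bcor* is truncated. The 2 BcorΔE9-10 libraries came from donors labelled scl-Cre-ERT +; Bcorfl/y, in which tamoxifen-induced Cre, active in haematopoietic stem cells, removes internal *Bcor* exons. The 2 BcorWT libraries came from Bcorfl/y donors, which carried the floxed allele without Cre and, per the study's methods, also received tamoxifen. In both genotypes *Bcor* is hemizygous, and the donor cells had passed through sub-lethally irradiated recipients whose own CD45.1+ cells were left out by the sort. The labels give no age and do not say whether a library came from 1 recipient or from several, so the spread between 2 libraries of a genotype may be partly technical.

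Cholesterol is made from acetyl-CoA. The mevalonate branch, with *Hmgcs1*, *Idi1* and *Fdps*, makes farnesyl diphosphate, which is also used to prenylate proteins and to make dolichol and ubiquinone. *Fdft1* and *Sqle* commit farnesyl diphosphate to sterols, and *Cyp51* and later enzymes turn lanosterol into cholesterol. When sterol is scarce in the endoplasmic reticulum, SCAP escorts SREBP2, the product of *Srebf2*, to the Golgi, where it is cleaved so that it can enter the nucleus and switch on the genes of cholesterol synthesis and uptake together. INSIG proteins hold SCAP back when sterol is plentiful. Dividing progenitors draw on this pathway for new membrane.

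SREBP2 binds sterol regulatory elements and acts with NF-Y, which binds CCAAT boxes. Of the 6 genes with counts, *Hmgcs1*, *Idi1* and *Cyp51* had a promoter in the RefSeq table (GRCm38.p6), read here as the 250 bases before the RefSeq start. The *Hmgcs1* window is shown because it is the one of these 3 that held TCACNCCAC, the only spelling of the sterol element that was searched. It is written 5′ to 3′ on the gene's strand, with the sterol element TCACNCCAC and the CCAAT box, on either strand, in capitals.
*Hmgcs1* (chr13:119690101-119690350, plus strand): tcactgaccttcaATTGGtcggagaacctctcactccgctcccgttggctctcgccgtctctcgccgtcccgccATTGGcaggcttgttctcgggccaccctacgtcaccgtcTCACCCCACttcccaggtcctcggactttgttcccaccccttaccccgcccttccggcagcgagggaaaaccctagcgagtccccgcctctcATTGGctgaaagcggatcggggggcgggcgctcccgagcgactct
The RefSeq start of *Hmgcs1* lies 28 bases upstream of the GENCODE start given below, and the windows of *Idi1* and *Cyp51* reach 105 and 49 bases into the gene as GENCODE draws it. The *Hmgcs1* window held 1 match to TCACNCCAC, which starts 137 bases before the RefSeq start, and the same letters were found in 1.05% of all 32851 promoter windows of this length. It also held 3 CCAAT boxes, whereas the *Idi1* window held 2 and the *Cyp51* window held 1. A CCAAT box was present in 33.8% of all windows. The Sp1 box GGGCGG was found in each of the 3 windows and in 32.7% of all windows, and the E-box CACGTG, found in 6.02% of all windows, was in none of the 3. No match in these windows shared a base with a match to another motif.

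Total counts ranged from 3825289.5 to 6253100.5 per library. The counts are 3′ reads, and a count of 3 corresponded to between 0.489 and 0.876 CPM (a gene's counts relative to the library total scaled with edgeR's TMM factors). *Bcor* itself had 104 and 113 counts in BcorΔE9-10 and 58 and 79 in BcorWT, a log2 fold change of 0.25 (standard error 0.36), and reads from the 3′ end do not test a deletion of internal exons. The rRNA-like transcript *Gm42418* took 27.9% of the counts in BcorWT replicate 1 and 1.43% in BcorWT replicate 2, against 14.3 and 16.3% in BcorΔE9-10. The BcorWT libraries were the least alike pair, with a Pearson correlation of log2 CPM across genes of 0.893 against 0.901 to 0.947 for the other 5 pairs. Across genes, 24.3% differed by more than 1 log2 unit between the BcorWT libraries and 8.92% between the BcorΔE9-10 libraries. Values that rest on 1 BcorWT library are therefore given with and without it. With BcorWT replicate 1 left out, the spread comes from the BcorΔE9-10 pair alone, the lone BcorWT library is assumed to vary like that pair, and 596 genes had an adjusted p under 0.05 in edgeR. The sorted cells carried transcripts of all 11 genes listed for KL progenitors, among them *Kit* at 29.4 to 61.9 CPM and *Mpo* at 4284 to 6888 CPM.

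None of the 6 genes passed the test between genotypes. *Fdps* and *Fdft1* lay higher in both BcorΔE9-10 libraries than in both BcorWT libraries, by 1.63-fold and 1.50-fold, while the groups overlapped for *Hmgcs1*, *Idi1*, *Sqle* and *Cyp51*. In edgeR's quasi-likelihood test 0 of the 6 had an adjusted p under 0.05 (Benjamini-Hochberg over all genes), against 0.0166% of all genes, and 0 had an unadjusted p under 0.05, against 4.42% of all genes. DESeq2 and limma-voom also called 0 of the 6 by either measure. The log2 fold change was above 0 for 5 of the 6, against 47.7% of all genes, with a median of 0.44 beside -0.03 over all genes. The median of the 6 was 0.26 without BcorΔE9-10 replicate 2 and 0.29 without BcorWT replicate 2, and in the latter fit 3 of the 6 were above 0. Groups without overlap and with BcorΔE9-10 above were found for 2 of the 6, against 16.8% of all genes, and groups with BcorΔE9-10 below for 0 of the 6, against 17.1% of all genes. In bulk RNA, fewer cells making a transcript and less of it per cell cannot be told apart.

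**Figure D1:**
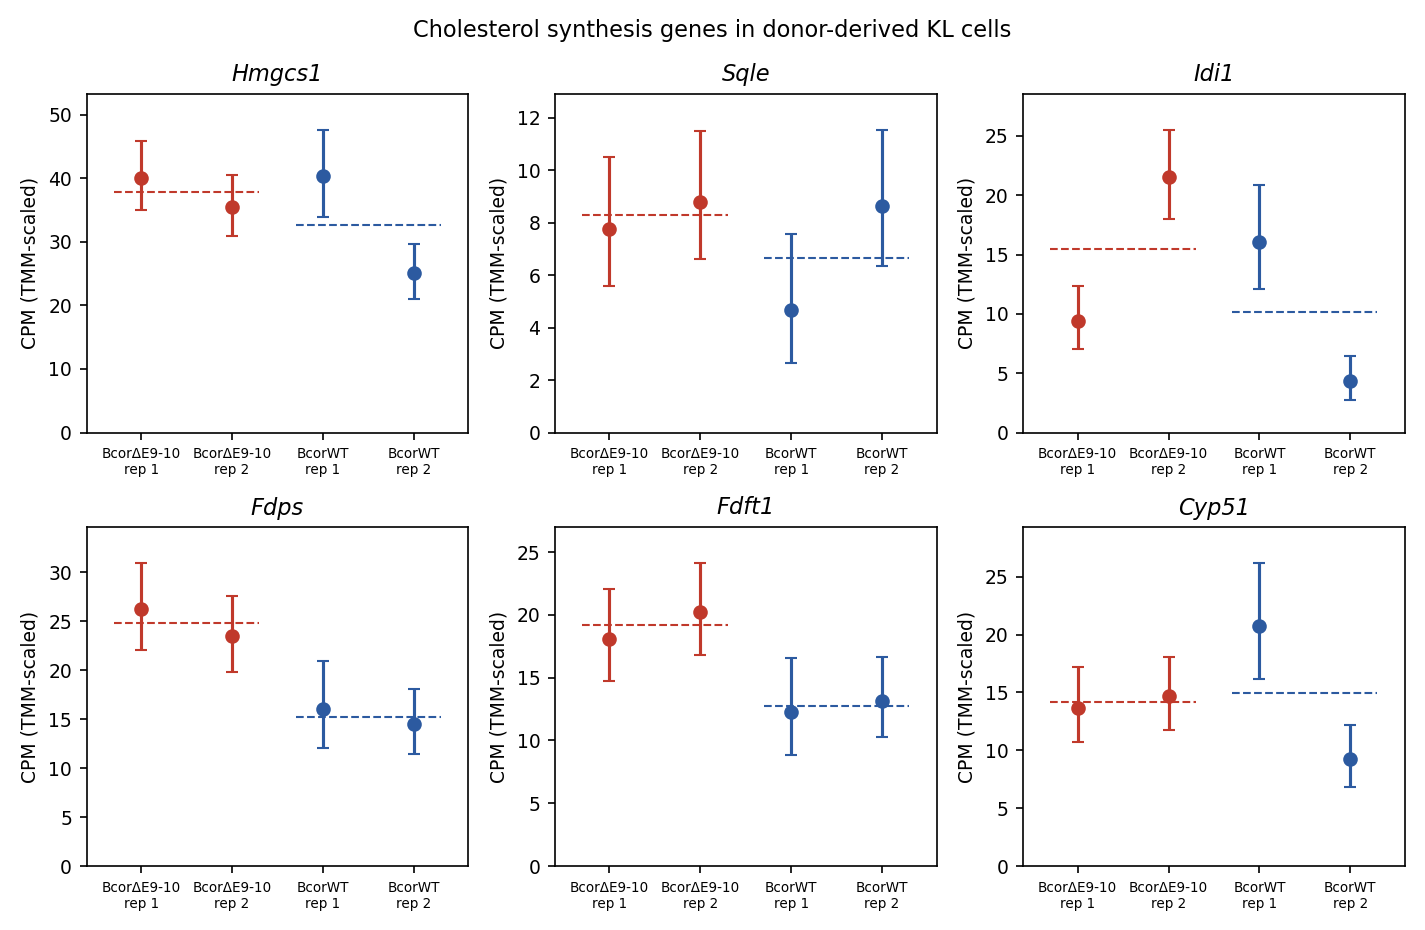
Level of each cholesterol synthesis gene in CPM (y axis, starting at 0) in the 4 libraries (x axis), with bars for the 95% exact Poisson interval of the count and dashed lines for the mean of each genotype. *Fdps* and *Fdft1* lie higher in both BcorΔE9-10 libraries (red) than in both BcorWT libraries (blue), and *Hmgcs1*, *Idi1* and *Cyp51* lie lowest in BcorWT replicate 2.

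*Hmgcs1* (ENSMUSG00000093930, chromosome 13 from 119690379 to 119708260, GRCm38) encodes the synthase that makes HMG-CoA. It had 217 and 218 counts in BcorΔE9-10 and 138 and 133 in BcorWT, or 40.1 and 35.5 CPM against 40.3 and 25.0 CPM. BcorWT replicate 1 was thus as high as BcorΔE9-10, and the difference came from BcorWT replicate 2 alone, whose 95% Poisson interval of 21.0 to 29.7 CPM did not meet that of replicate 1, 33.9 to 47.6 CPM. Intervals of this kind cover counting error only. Between genotypes the log2 fold change was 0.22 (standard error 0.35, edgeR adjusted p = 0.962), and it was -0.09 without BcorWT replicate 2 and 0.59 without BcorWT replicate 1. *Hmgcs1* shares 557 exonic bases with *Gm48342*, an antisense gene on the opposite strand that was not analysed here. Whether the counting used the strand is not given in the sources used here.

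*Idi1* (ENSMUSG00000058258, chromosome 13 from 8885501 to 8892451) encodes the isomerase that makes dimethylallyl diphosphate. It had 51 and 132 counts in BcorΔE9-10 and 55 and 23 in BcorWT, or 9.43 and 21.5 CPM against 16.1 and 4.33 CPM. Both genotypes held a high and a low library, 2.28-fold apart in BcorΔE9-10, and *Idi1* was the least steady of the 6 genes. The log2 fold change of 0.63 (standard error 0.67, edgeR adjusted p = 0.946) had a 95% interval from -0.92 to 2.18. Leaving out 1 library moved it between -0.08, without BcorΔE9-10 replicate 2, and 1.83, without BcorWT replicate 1. It was -0.05 without BcorWT replicate 2 and 1.10 without BcorΔE9-10 replicate 1. The processed pseudogene *Gm13502* is identical to *Idi1* over 684 bases, so reads from this stretch cannot be placed on *Idi1* alone. *Idi1* also shares 323 exonic bases with *Gm48574* on the opposite strand, which was not analysed here.

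*Fdps* (ENSMUSG00000059743, chromosome 3 from 89093588 to 89101959) encodes farnesyl diphosphate synthase, at the branch point between sterols and other isoprenoids. It had 142 and 144 counts in BcorΔE9-10 and 55 and 77 in BcorWT, or 26.2 and 23.5 CPM against 16.1 and 14.5 CPM. The groups did not overlap, and the mean was 24.9 ± 1.96 CPM (SD, n = 2) in BcorΔE9-10 and 15.3 ± 1.11 in BcorWT. On the log2 scale this was 0.70 (standard error 0.34), and with any 1 library left out the value lay from 0.62 to 0.79. The 95% interval, from -0.09 to 1.50, included 0, with an unadjusted p of 0.0761 and an adjusted p of 0.945 in edgeR. *Fdps* shares 1124 exonic bases with *Gm43738*, annotated as protein-coding on the same strand and not analysed here, so reads there cannot be assigned to *Fdps* alone. It has 4 processed pseudogenes that match it at 95% identity or more over at least 500 bases. *Gm3571*, 98.9% identical over 1062 bases, was the only such copy in the table, with 9.24 and 13.2 CPM in BcorΔE9-10 and 9.34 and 11.3 CPM in BcorWT, groups that overlapped. With its reads added to those of *Fdps* the log2 fold change was 0.49 (unadjusted p = 0.149 in edgeR), a setting chosen after the data were seen.

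*Fdft1* (ENSMUSG00000021273, chromosome 14 from 63145150 to 63179578) encodes squalene synthase, which draws farnesyl diphosphate into sterols. It had 98 and 124 counts in BcorΔE9-10 and 42 and 70 in BcorWT, or 18.1 and 20.2 CPM against 12.3 and 13.2 CPM. The groups did not overlap, with means of 19.2 ± 1.49 CPM (SD, n = 2) and 12.7 ± 0.642. BcorΔE9-10 was higher by 0.59 on the log2 scale (standard error 0.37, edgeR adjusted p = 0.945), with a 95% interval from -0.26 to 1.44 and a range of 0.51 to 0.67 when 1 library was left out. The last exon of *Fdft1* shares 774 bases with that of *Ctsb*, a cathepsin gene on the opposite strand, and whether the counting used the strand is not given in the sources used here. *Ctsb* had 57.8 and 58.5 CPM in BcorΔE9-10 and 42.3 and 90.7 CPM in BcorWT, so that its groups overlapped where those of *Fdft1* did not. The processed pseudogene *Gm6781*, 97.4% identical to *Fdft1* over 1249 bases, was not analysed here.

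*Sqle* (ENSMUSG00000022351, chromosome 15 from 59315077 to 59331192) encodes squalene epoxidase. It had 42 and 54 counts in BcorΔE9-10 and 16 and 46 in BcorWT, or 7.76 and 8.80 CPM against 4.67 and 8.66 CPM. BcorWT replicate 1 stood lower than the other 3 libraries, with a 95% Poisson interval of 2.67 to 7.59 CPM on its 16 counts that overlapped those of the other libraries, which start at 5.59, 6.61 and 6.34 CPM. The log2 fold change was 0.30 (standard error 0.51, edgeR adjusted p = 0.964), and it was -0.07 without BcorWT replicate 1 and 0.82 without BcorWT replicate 2.

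*Cyp51* (ENSMUSG00000001467, chromosome 5 from 4081145 to 4104746) encodes the demethylase that acts on lanosterol. It had 74 and 90 counts in BcorΔE9-10 and 71 and 49 in BcorWT, or 13.7 and 14.7 CPM against 20.7 and 9.22 CPM. Both BcorΔE9-10 libraries lay between the 2 BcorWT libraries. The log2 fold change of -0.06 (standard error 0.47, edgeR adjusted p = 0.994) became 0.62 without BcorWT replicate 1 and -0.55 without BcorWT replicate 2. Its interval, from -1.16 to 1.03, leaves room for a 2.04-fold difference upwards as well as for a fold of 0.448. At the 3′ end *Cyp51* shares 166 exonic bases with *Akap9* on the opposite strand, which had 72.1 and 58.4 CPM in BcorΔE9-10 and 67.2 and 40.1 CPM in BcorWT, lowest in the same library as *Cyp51*.

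**Figure D2:**
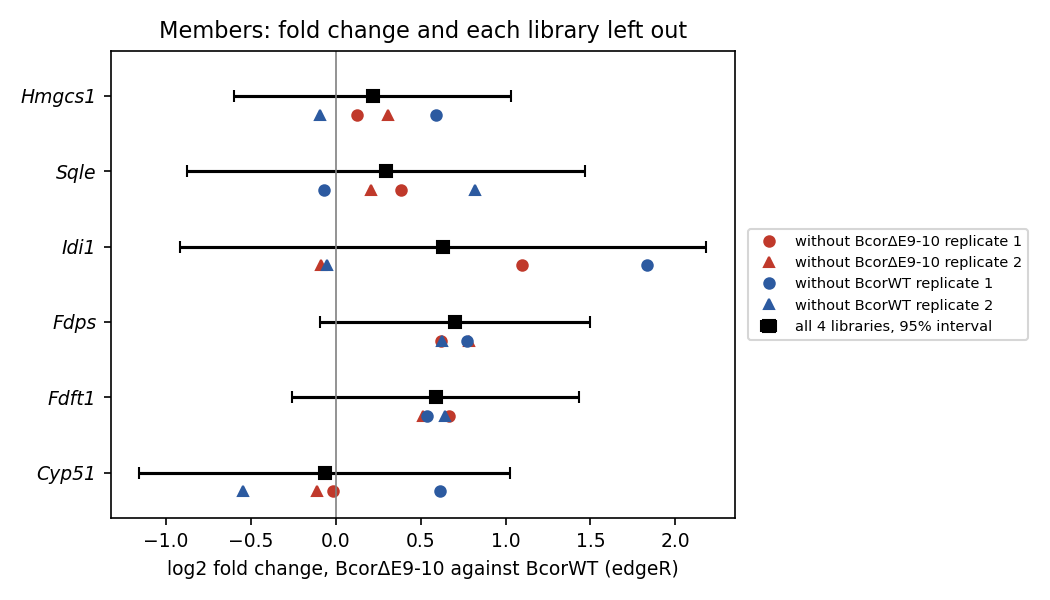
Log2 fold change of each gene, BcorΔE9-10 against BcorWT (x axis), with all 4 libraries (black squares, bars for the 95% interval) and with 1 library left out (coloured symbols). *Fdps* and *Fdft1* stay between 0.51 and 0.79, whereas *Hmgcs1*, *Idi1*, *Sqle* and *Cyp51* have values on both sides of 0.

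In CPM of 3′ reads, where a transcript is counted near its 3′ end and values are not divided by length, *Hmgcs1* had the highest level of the 6, with a mean of 35.2 ± 7.16 CPM (SD over 4 libraries). It was followed by *Fdps* at 20.1 ± 5.68, *Fdft1* at 15.9 ± 3.84, *Cyp51* at 14.6 ± 4.74, *Idi1* at 12.8 ± 7.52 and *Sqle* at 7.47 ± 1.92. *Hmgcs1* was above *Fdps*, and *Fdps* above *Fdft1*, in 4 of 4 libraries. For *Fdps* and *Fdft1* the ranges of mean ± SD overlapped all the same. The neighbours lower in this order, *Fdft1* and *Cyp51*, *Cyp51* and *Idi1*, and *Idi1* and *Sqle*, exchanged places in 1 library each. Their ranges of mean ± SD overlapped too. By mean level the 6 genes lay between the 26.7th percentile of all genes in the table, for *Sqle*, and the 66.4th, for *Hmgcs1*. Summed over the 6 genes, the level was 115 and 124 CPM in BcorΔE9-10 and 110 and 74.9 CPM in BcorWT. Only BcorWT replicate 2 stood apart in this sum.

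Within BcorWT, the 6 genes went different ways. In replicate 2, *Idi1* was at 0.269 of its level in replicate 1, *Cyp51* at 0.445 and *Hmgcs1* at 0.621, while *Sqle* was 1.85-fold higher and *Fdps* and *Fdft1* were at 0.902 and 1.07. Of the 6 genes, 2 differed by more than 1 log2 unit between these libraries, beside the 24.3% of all genes. BcorWT replicate 2 held the lowest value of 4 of the 6 genes and the highest of 0, whereas over all genes it was lowest for 36.1% and highest for 34.5%.

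The other enzymes of the pathway were read from a list of 15, all of which were in the table. BcorΔE9-10 was higher for 6 and lower for 9, with a median log2 fold change of -0.25. An unadjusted p under 0.05 in edgeR was found for 1 of 15, beside 4.42% of all genes. That gene was *Mvd*, whose product makes isopentenyl diphosphate, with 14.4 and 15.6 CPM in BcorΔE9-10 and 19.9 and 40.3 CPM in BcorWT. Its groups did not overlap and BcorΔE9-10 was lower, with a log2 fold change of -1.01 (standard error 0.42, edgeR adjusted p = 0.945) that was -0.40 without BcorWT replicate 2. Without BcorWT replicate 1, with the spread from the BcorΔE9-10 pair alone, it was -1.42 with an edgeR adjusted p of 0.0319.

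*Sc5d*, a desaturase near the end of the pathway, had 20.9 and 23.6 CPM in BcorΔE9-10 and 23.9 and 8.84 CPM in BcorWT, and like *Hmgcs1* it was low in BcorWT replicate 2 alone. Its log2 fold change of 0.46 (standard error 0.49) was -0.10 without that library and 1.33 without BcorWT replicate 1. The kinase gene *Mvk* and the sterol reductase gene *Tm7sf2* showed the reverse. *Mvk* had 3.14 and 4.56 CPM in BcorΔE9-10 and 3.80 and 12.8 CPM in BcorWT, and *Tm7sf2* had 25.1 and 24.0 CPM against 25.1 and 61.5 CPM. Both stood high in BcorWT replicate 2 alone. For *Mvk* the log2 fold change of -1.12 (standard error 0.67) was 0.025 without that library and -1.72 without BcorWT replicate 1. For *Tm7sf2* it was -0.83 (standard error 0.45) and -0.034 without BcorWT replicate 2, and without BcorWT replicate 1 it was -1.33 with an edgeR adjusted p of 0.0320, the spread again coming from the BcorΔE9-10 pair alone. *Sc5d*, *Mvk* and *Tm7sf2* were singled out after their values were seen.

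The genotypes overlapped for *Msmo1* and *Dhcr7*, which act at later steps. *Msmo1*, which removes methyl groups from the sterol, had 13.3 and 25.9 CPM against 16.9 and 18.4 CPM, or 0.15 on the log2 scale (standard error 0.42), and was at -0.41 without BcorΔE9-10 replicate 2 and 0.55 without BcorΔE9-10 replicate 1. *Dhcr7*, a reductase of the closing steps, had 2.03 and 3.91 CPM against 6.72 and 3.20 CPM, or -0.71 on the log2 scale (standard error 0.69), and was at -0.10 without BcorWT replicate 1, -1.16 without BcorWT replicate 2 and -1.25 without BcorΔE9-10 replicate 2. Counting the 6 genes and these 15 together, BcorΔE9-10 was higher for 11 of 21 enzymes and lower for 10, with a median log2 fold change of 0.03. Among the 19 enzymes plotted by library, BcorWT replicate 2 was lowest for 7 and highest for 6, beside 36.1 and 34.5% of all genes. BcorΔE9-10 replicate 1 was lowest for 7 and highest for 2, beside 20.8 and 20.4% of all genes. BcorWT replicate 1 was lowest for 4 and highest for 6, beside 21.7 and 24.6% of all genes.

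**Figure D3:**
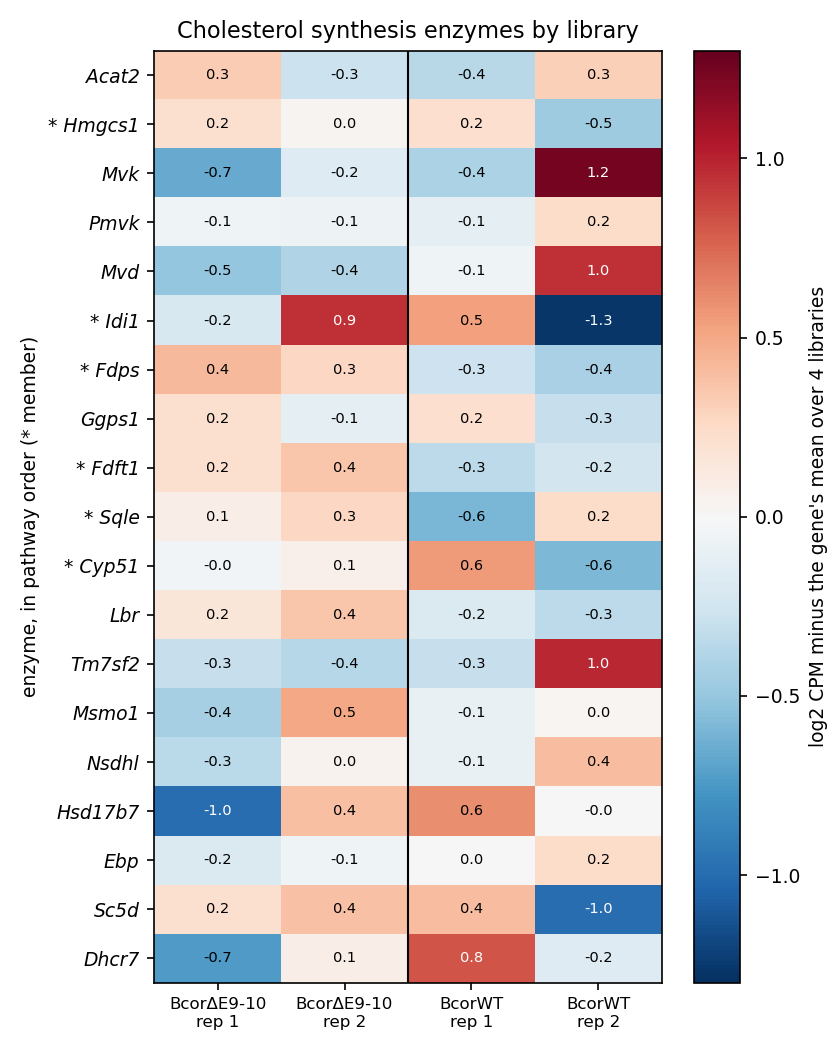
Log2 CPM of 19 cholesterol synthesis enzymes (rows, in pathway order, the 6 genes of the report marked with an asterisk) in the 4 libraries (columns), each minus the gene's mean over the libraries. BcorWT replicate 2 holds low values of *Idi1*, *Cyp51* and *Sc5d* and high values of *Mvk*, *Mvd* and *Tm7sf2*. It is lowest for 7 enzymes, as is BcorΔE9-10 replicate 1, beside 36.1 and 20.8% of all genes in these 2 libraries.

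Of the 12 genes listed for uptake and transport of cholesterol, 10 were in the table, 4 higher and 6 lower in BcorΔE9-10, with 0 at an unadjusted p under 0.05 in edgeR and a median log2 fold change of -0.10. *Stard4*, a sterol carrier, had the highest log2 fold change of the list, 0.51 (standard error 0.45), with 23.7 and 17.6 CPM in BcorΔE9-10 and 19.6 and 9.60 CPM in BcorWT. It was 0.074 without BcorWT replicate 2 and 1.10 without BcorWT replicate 1. *Stard3*, a sterol transfer protein of late endosomes, had the lowest, -1.003 (standard error 0.60), with 23.3 and 27.2 CPM against 19.0 and 81.7 CPM. This value rested on BcorWT replicate 2, without which it was 0.41, and it was -1.70 without BcorWT replicate 1 (edgeR adjusted p = 0.0167, with the spread from the BcorΔE9-10 pair alone).

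Among 8 genes of sterol sensing, all in the table, 4 were higher and 4 lower in BcorΔE9-10, with 0 at an unadjusted p under 0.05 in edgeR and a median log2 fold change of 0.01. *Srebf2* had 82.8 and 126 CPM in BcorΔE9-10 and 88.8 and 247 CPM in BcorWT. It was highest in BcorWT replicate 2, the library with the lowest *Hmgcs1*, *Idi1* and *Cyp51*, and its log2 fold change of -0.69 (standard error 0.50) was 0.23 without that library and -1.25 without BcorWT replicate 1. *Insig1*, itself switched on by SREBP2, had 18.7 and 26.7 CPM against 17.8 and 23.3 CPM, and *Srebf1* had 17.9 and 20.2 CPM against 18.4 and 20.5 CPM. Their log2 fold changes were 0.14 (standard error 0.37) and -0.03 (standard error 0.35), and each changed sign with 1 library left out. *Mbtps2*, a protease that cleaves SREBPs, had the highest of the list at 0.45 (standard error 0.48), with 8.87 and 10.1 CPM against 8.76 and 5.27 CPM. It was 0.12 without BcorWT replicate 2 and 0.84 without BcorWT replicate 1.

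For efflux and storage, 6 of 8 listed genes were in the table, 3 higher and 3 lower in BcorΔE9-10, with a median log2 fold change of -0.04. *Abca1* was not analysed here. *Abcg1*, a cholesterol exporter, was the 1 gene of this list with an unadjusted p under 0.05 in edgeR, beside 4.42% of all genes. It had 37 and 37 counts in BcorΔE9-10 and 9 and 3 in BcorWT, or 6.84 and 6.03 CPM against 2.63 and 0.565 CPM. The groups did not overlap, and the log2 fold change was 2.08 (standard error 0.79, edgeR adjusted p = 0.945), with the lower BcorWT library at the 3 counts taken as the floor, and it was 1.84 with a prior count of 2. It was 1.28 without BcorWT replicate 2, and 3.45 with an edgeR adjusted p of 0.0462 without BcorWT replicate 1, which leaves 1 BcorWT library at 3 counts and takes the spread from the BcorΔE9-10 pair alone.

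Fatty acid enzymes that SREBPs also switch on numbered 9 of 11 in the table, 3 higher and 6 lower, with a median log2 fold change of -0.04 and 0 at an unadjusted p under 0.05 in edgeR. *Scd1* had the highest value, 1.25 (standard error 1.14), on 7 and 30 counts against 9 and 1. It was -0.014 without BcorΔE9-10 replicate 2 and 3.90 without BcorWT replicate 1. *Acaca*, the carboxylase that starts fatty acid synthesis, had the lowest, -0.60 (standard error 0.36), with 13.3 and 15.6 CPM against 19.9 and 24.1 CPM and no overlap. Enzymes that use isoprenoids, all 11 of them in the table, were higher for 6 and lower for 5, with a median of 0.15 and 0 at an unadjusted p under 0.05 in edgeR. The farnesyltransferase subunits differed in sign, *Fnta* at 0.40 (standard error 0.32) with 51.4 and 41.6 CPM against 33.0 and 37.3 CPM, and *Fntb* at -0.53 (standard error 0.44) with 15.2 and 8.15 CPM against 15.5 and 18.1 CPM. *Fntb* was at -0.15 without BcorΔE9-10 replicate 2 and at -1.04 without BcorΔE9-10 replicate 1, and *Fnta* was at 0.24 without BcorΔE9-10 replicate 1. Over the 59 genes of these 6 lists, 26 were higher and 33 lower, and the groups did not overlap with BcorΔE9-10 higher for 10 and lower for 9, beside 16.8 and 17.1% of all genes.

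**Figure D4:**
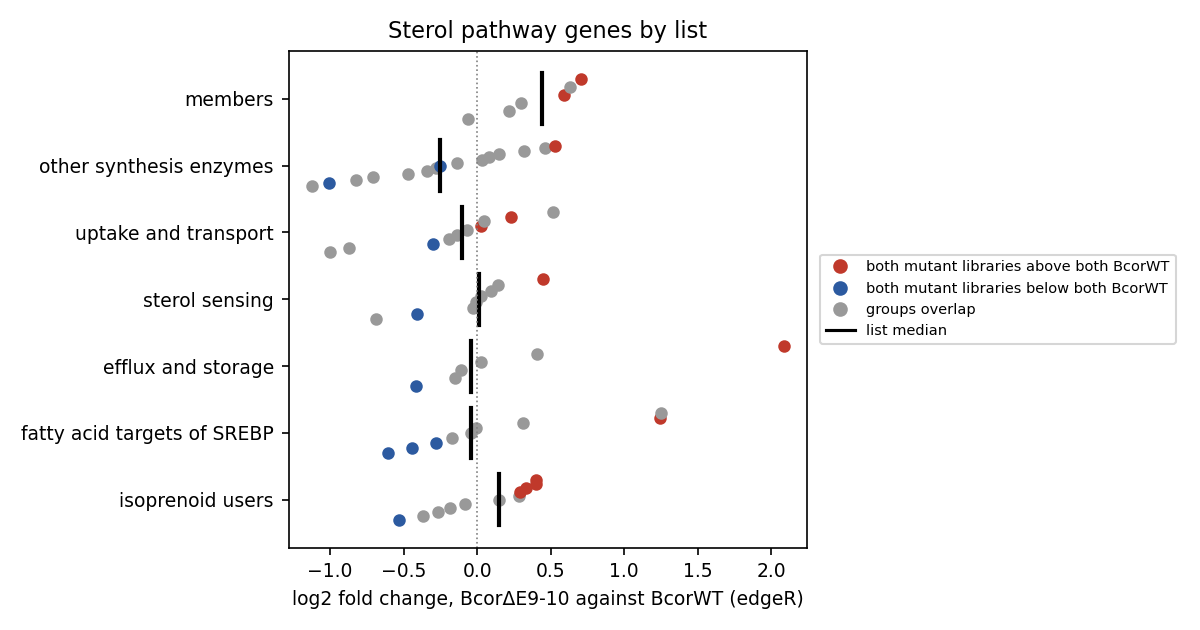
Log2 fold change, BcorΔE9-10 against BcorWT (x axis), of each gene in the table by list (rows), coloured by whether the groups overlap, with a black bar for the list median. The 6 cholesterol synthesis genes have a median of 0.44, and the medians of the other 6 lists lie between -0.25 and 0.15.

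For some genes of the marker lists the groups did not overlap. Whether KL cells or other cells carried these transcripts was not tested. In edgeR 0 genes of the marker lists had an adjusted p under 0.05, and no list was tested as a whole. All 8 erythroid genes in the table, of 10 listed, were higher in BcorΔE9-10 without overlap, beside 16.8% of all genes. Their summed level was 185 and 162 CPM against 74.8 and 78.1 CPM. *Epor*, for the erythropoietin receptor, was not analysed here. The 7 eosinophil, basophil and mast cell genes in the table, of 8 listed, were lower without overlap, beside 17.1% of all genes. They summed to 234 and 195 CPM against 441 and 520 CPM. Of the 11 KL progenitor genes, 2 were higher and 4 lower in BcorΔE9-10 without overlap. Late neutrophil genes, 8 of 8 in the table, summed to 63364 and 155144 CPM in BcorΔE9-10 and 94398 and 143510 CPM in BcorWT with both replicate 1 libraries below both replicate 2 libraries. Proliferation genes, 10 of 10 in the table, summed to 2139 and 2334 CPM against 1808 and 2431 CPM, and genes of sorting and handling stress, 10 of 10, to 4264 and 3584 CPM against 5619 and 3654 CPM. An unadjusted p under 0.05 was found for 4 of the 8 erythroid genes, 5 of the 7 eosinophil, basophil and mast cell genes and 2 of the 10 stress genes, beside 4.42% of all genes. It was also found for 1 of 3 megakaryocyte genes and 1 of 4 genes listed as negative for the KL gate, both lower in BcorΔE9-10, and for 1 of 3 stem cell genes, higher in BcorΔE9-10, and for 0 genes of the other marker lists. The 2 stress genes were the heat shock genes *Hspa1a* and *Hspa1b*, both lower in BcorΔE9-10 without overlap and named after their values were seen. *Hspa1a* had 173 and 167 CPM against 663 and 634 CPM (edgeR adjusted p = 0.419). The part of these cells and states in the levels of *Fdps*, *Fdft1* and the other sterol genes was not tested.

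Centred on its mean and averaged over the 6 genes, the log2 level was 0.11 and 0.32 in BcorΔE9-10 and 0.016 and -0.45 in BcorWT. Each gene is part of this mean, and *Idi1* weighs on it most, at 0.95 in BcorΔE9-10 replicate 2 and -1.27 in BcorWT replicate 2. The root mean square difference from it over the 4 libraries was 0.18 log2 units for *Hmgcs1*, 0.21 for *Fdps* and *Fdft1*, and 0.60 for *Idi1*. Among 5898 other genes with a mean of at least 20 CPM, those with the smallest difference from it were *Papola* (0.013 log2 units), *C1d* (0.026), *Kif15* (0.027), *Prelid3b* (0.028) and *Cetn2* (0.031). *Papola*, for a poly-A polymerase, had 90.2 and 104 CPM in BcorΔE9-10 and 85.9 and 60.4 CPM in BcorWT.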

How the data were processed

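Reads of low quality were dropped by the authors, who cut off read starts and poly-A tails (cutadapt), aligned to GRCm38 (HISAT2) and counted per gene (subread). The deposited table holds raw counts for BcorΔE9-10 replicate 1 and BcorWT replicate 2. The other two deposited columns were treated as holding expected counts, since *Gm4430* alone ends in a fraction there, and were rounded. The rule that removed low genes from the table is not given in the sources used here.

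edgeR 4.0.16 (R 4.3.3) was run on all 4 libraries with filterByExpr (0 genes removed), TMM scaling, a quasi-likelihood F test, a prior count of 0.125 and Benjamini-Hochberg adjustment over 12067 genes. The standard error was the log2 fold change divided by the square root of F. Log2 CPM used a prior count of 2. Alternatives were DESeq2 1.42.0, limma-voom (limma 3.58.1), other scalings and filters, a replicate block, and each library left out. The fit was tested on simulated data. Exact Poisson intervals are at the 95% level. Positions came from GENCODE M21, pseudogene copies from blastn 2.17.0 (95% identity over 500 bases), and promoters from RefSeq. Figures were drawn with matplotlib 3.10.9.

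The genes and lists were chosen with earlier results of these data known. Named were all 6 genes, a set group of pathway genes, every pathway gene with an unadjusted p under 0.05 or else the highest and lowest of its list, and the 5 genes of most similar profile. *Mvk*, *Sc5d* and *Tm7sf2* were added after their values were seen. Some genes of the rule are not reported here.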

Additional observations from a re-analysis of the deposited data

How the results depend on the processing

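Each genotype had 2 libraries, and the 6 genes had 16 to 218 counts per gene and library. The groups overlapped for *Hmgcs1*, *Idi1*, *Sqle* and *Cyp51*. They did not overlap for *Fdps* and *Fdft1*, but the edgeR interval of the log2 fold change included 0 for both genes. The 3′ counts of *Bcor* do not check the genotype. *Fdps* and *Fdft1* kept their direction under all 13 alternatives run for every gene, and 0 of the 6 genes reached an adjusted p under 0.05 under any of them. Without BcorWT replicate 1, the log2 fold changes of *Fdps* and *Idi1* were 0.77 and 1.83. In that fit the BcorWT group is 1 library, assumed to vary like the BcorΔE9-10 pair that alone gives the spread. For the values given below, the cause of a change was not tested.

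The number of genes with an adjusted p under 0.05 was 2 in the reported fit, 5 with at least 10 counts in every library, 4 with limma-voom and 43 with DESeq2, and between 6 and 596 with 1 library left out, the highest without BcorWT replicate 1. The number with an unadjusted p under 0.05 was 243 to 3013 with 1 library left out, against 533. The median log2 fold change of all genes was -0.0035 with limma-voom and -0.041 to 0.025 with 1 library left out. The median of the 6 genes was 0.26 to 0.60, and 3 to 5 of them were higher in BcorΔE9-10, with 1 library left out. *Cyp51* was at 0.10 with limma-voom.

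The replicate numbers come from the labels, which do not say what a number marks, and same-numbered libraries deviated from their group means with a correlation of -0.094. With the replicate block 14 genes had an adjusted p under 0.05, *Cyp51* was at 0.030, and 6 of the 6 genes were higher.

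With 1 library left out, log2 fold changes on both sides of 0 were found for *Hmgcs1* (-0.092 to 0.59), *Sqle* (-0.066 to 0.82), *Idi1* (-0.085 to 1.83), *Cyp51* (-0.55 to 0.62), *Msmo1* (-0.41 to 0.55), *Srebf2* (-1.25 to 0.23), *Srebf1* (-0.12 to 0.054), *Insig1* (-0.14 to 0.37), *Stard3* (-1.70 to 0.41), *Scd1* (-0.014 to 3.90), *Mvk* (-1.72 to 0.025) and *Sc5d* (-0.10 to 1.33).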
